A study of Mus musculus with 45 samples.

Results

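Small-subunit ribosomal protein mRNAs were followed in mouse fetal liver cells that carried a floxed allele of Rpl5 or Rps19 with or without VavCre. They were chosen by gene name, as listed cytosolic proteins of the small ribosomal subunit, and not by a measured value, though earlier results of these data were known. The list gave 27 genes of the 13449 in the deposited table, with Rps19, which the study targeted, left out. Rpl5, the other targeted gene, was left out of the 46 large-subunit mRNAs set beside them. Every one of the 27 passed the filter on low values in every comparison, and none was at 0 reads in any library. The lowest count of a member in a library was 177 reads.

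The small ribosomal subunit reads the messenger RNA and checks each codon against its transfer RNA, while the large subunit joins the amino acids. Its proteins are made in equal numbers and are added to the ribosomal RNA in a fixed order. The mRNAs of both subunits mostly open with a terminal oligopyrimidine tract (TOP), a C followed by a run of C and T letters, through which growth signals move them on and off polysomes as a group. Loss of 1 copy of a ribosomal protein gene causes Diamond-Blackfan anemia, in which red cell precursors fail. Several small-subunit genes, RPS19 first among them, and several large-subunit genes, RPL5 among them, are known causes.

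Fetuses of E15.5 came from VavCre dams, in which Cre acts in blood cells, mated to sires with a floxed allele of either gene on both chromosomes. The 4 genotypes were Rpl5flox/+, VavCre Rpl5flox/+, Rps19flox/+ and VavCre Rps19flox/+, so that the controls carried a floxed allele without Cre, and no group with VavCre alone was analysed here. All cells had been held for 15 min in emetine at 25 µg/mL, which stops ribosomes on their mRNA, and were taken with magnetic beads as Kit+ cells (stem and progenitor cells) and then Ter119+ cells (maturing red cell precursors). Each pool joined cells of several fetuses of a genotype. Lysates were separated on sucrose gradients, and poly(A) RNA of a cytoplasm and a polysome fraction was sequenced in 45 libraries. There were 16 groups of 3 libraries each, except for Kit+ polysomes of VavCre Rpl5flox/+, with 1, and Ter119+ polysomes of Rpl5flox/+, with 2. A replicate is a pool, so the p-values measure the spread between pools.

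Libraries of cytoplasm held 22.94 to 123.5 M reads and those of polysomes 1.011 to 39.76 M, with 3 Kit+ and 1 Ter119+ polysome libraries under 2 M. The targeted genes checked the labels in part. Rpl5 fell to 0.512 of its control in Kit+ cytoplasm (530.7 ± 81.3 against 1046 ± 101 normalized counts, SD, n = 3 and 3, limma adjusted p = 0.000283), and Rps19 to 0.718 of its control (12939 ± 1409 against 18037 ± 1985, adjusted p = 0.00189). The log2 change of Rps19, -0.48, lay within the range of the 27 members in that comparison, -0.70 to 0.33 (median -0.32). With VavCre Rps19flox/+ Rpl5 fell as well, to 0.66 of its control (adjusted p = 0.00472). In Ter119+ cytoplasm Rpl5 was higher, not lower, in the libraries labelled VavCre Rpl5flox/+ (499.9 ± 47.1 against 368.3 ± 83.6, adjusted p = 0.0278), and Rps19 did not pass in those of VavCre Rps19flox/+ (12023 ± 1513 against 13842 ± 1331, adjusted p = 0.302). On polysomes of VavCre Rps19flox/+, Rps19 stood at 0.548 of its control in Kit+ cells (limma adjusted p = 0.0222). In Ter119+ cells it stood at 0.487 (adjusted p = 0.0406). Members of the list fell on these polysomes too, as given further on. On Ter119+ polysomes labelled VavCre Rpl5flox/+, Rpl5 was also above its controls, without passing (2430 ± 3382 against 168.1, adjusted p = 0.0959). The VavCre libraries on polysomes held 546.6, 6334 and 409.6, the value of 6334 at a depth of 1.021 M reads. By level alone these Rpl5 values do not show the loss that the label names. In that cytoplasm the log2 rise of Rpl5 was 0.44, below the median of 0.93 over the large-subunit mRNAs. Cdkn1a, a p53 target that stops the cell cycle, was 52.9-fold higher in those cytoplasm libraries (7918 against 135.2 normalized counts, adjusted p = 3.06e-12) and 31.7 to 83.8-fold higher in the other VavCre cytoplasm groups. Directions below are those of the labels. Kit, the receptor used to select progenitors, stood at 1732 normalized counts in Rpl5flox/+ Kit+ cytoplasm and at 45.4 in Ter119+ cytoplasm.

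The start sites of the mRNAs are shown first because the polysome results below rank these genes in an order that can be set against them. RefSeq gave a start for 23 of the 27 members (GRCm38.p6). The 30 bases around it, 15 on each side, are printed for the 5 members with the highest and then the 5 with the lowest polysome share in control Kit+ cells, among those with an entry. Capitals mark the longest run of at least 5 letters, each C or T, that opens with C.
Rps21: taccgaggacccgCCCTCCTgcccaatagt
Rps28: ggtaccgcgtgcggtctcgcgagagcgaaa
Fau: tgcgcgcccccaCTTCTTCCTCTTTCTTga
Rps18: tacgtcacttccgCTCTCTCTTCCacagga
Rps9: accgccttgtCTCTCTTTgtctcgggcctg
Rps3: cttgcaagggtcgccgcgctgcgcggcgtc
Rps6: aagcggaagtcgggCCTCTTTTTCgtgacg
Rps7: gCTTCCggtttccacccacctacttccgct
Rps23: gccttcggctgggcggggCTTCCCgcaatg
Rps2: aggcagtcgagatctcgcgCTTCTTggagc

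In GRCm38.p6 these windows are chr2:180257364-180257393 (plus strand), chr17:33824548-33824577 (minus), chr19:6057932-6057961 (plus), chr17:33955651-33955680 (minus) and chr7:3704026-3704055 (plus) for the first 5. For the last 5 they are chr7:99483695-99483724 (minus), chr4:86857353-86857382 (minus), chr12:28635939-28635968 (minus), chr13:90923107-90923136 (plus) and chr17:24720048-24720077 (plus). A run of at least 5 such letters read from a C within 2 bases of the RefSeq start was counted, also where that C lay inside a longer run. It was found in 8 of 23 members (34.8%) and in 12 of 33 large-subunit genes (36.4%). Of the 10586 genes of the table with an entry 9.88% had one, read on the gene's own strand. Anywhere in the window a run was found in 15 of 23 members (65.2%), against 38.1% of those genes. Rps21, Fau, Rps18 and, among the 5 lowest, Rps6 had such a run at the start. That of Fau was counted from a C inside its marked run, which opens 3 bases before the start. Rps28 and Rps3 had none in the window. For Rps2 and Rps9 the start used is only 1 of several that RefSeq lists. Whether these RefSeq starts are the ones used in fetal liver was not tested, and no match says only that such a run is not in this window.

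Rps27 needed a second row. Rps27rt, an intronless copy on another chromosome, shares its first bases with Rps27, as these first 30 transcribed bases from RefSeq show, with the 29 shared bases in capitals.
Rps27: cCTTTCCGGCGGTGACGACCTCCCTACGAG
Rps27rt: CTTTCCGGCGGTGACGACCTCCCTACGAGa

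They lie at chr3:90213619-90213648 (minus strand) and chr9:114982710-114982739 (minus strand) of GRCm38.p6. The share of their summed reads that the deposited table gives to Rps27rt ran from 33.09 to 96.23% over the 12 Kit+ cytoplasm libraries and from 0 to 92.86% over the 12 of Ter119+ cytoplasm. On polysomes it was 0 in 7 of 10 Kit+ and 7 of 11 Ter119+ libraries. The split moved between replicates of 1 group, so only the sum is given, under the name Rps27. Reads of the snoRNA genes that overlap Rps2, Rps3, Rps3a1, Rps12, Rps13, Rps16, Rps20 and Rpsa, and of the genes that overlap Rps25 and Rps27a, cannot be told apart from the host's in this table without strand. The same holds for a long noncoding RNA gene that overlaps Rps10 and a microRNA gene that overlaps Rps21.

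With VavCre Rpl5flox/+, the small-subunit mRNAs were higher in Kit+ cytoplasm. Of 27 members 20 rose and none fell (limma, adjusted p under 0.05 over 10907 genes), where 20.8% of all genes tested rose. The median log2 change was 0.36 over the members and 0.03 over all genes. In 25 members every VavCre library was above every control, as in 27.6% of all genes. The 46 large-subunit mRNAs tested had a median of 0.33, with 31 that rose and 1 that fell.

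Rps28, a small protein of the subunit's head, had the largest rise. Its normalized counts, reads divided by the library's size factor, were 10414, 10323 and 8176 in the 3 Rpl5flox/+ pools and 15922, 15993 and 13258 with VavCre. The groups did not overlap, and the log2 change was 0.65 ± 0.12 (SE, n = 3 and 3, adjusted p = 0.000872). Rps12, a protein of the head's beak, followed with 44155, 42579 and 35926 in controls and 59734, 66004 and 52132 with VavCre. Again every VavCre pool was above every control pool (0.54 ± 0.11, adjusted p = 0.00259). Rps14, whose human gene is lost in the 5q- syndrome, rose by 0.51 ± 0.11 (adjusted p = 0.00334).

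The other rises ran down to 0.28 on the log2 scale for Rps13, a protein of the body. The 7 members that did not pass were Rps23, Rps3, Rps4x, Rps3a1, Rps9, Rpsa and Rps16, with changes of 0.11 to 0.29, all above 0. In the head 9 of 11 members rose (median 0.38) and in the body and platform 11 of 16 (median 0.33). All 9 members whose human genes are also mutated in Diamond-Blackfan anemia rose (Rps7, Rps10, Rps15a, Rps20, Rps24, Rps26, Rps27, Rps28 and Rps29, median 0.40). Assembly factors of the small subunit had 6 of 24 that rose (median 0.22), and other TOP mRNAs, mostly translation factors, 9 of 21 (median 0.23).

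The cells of these pools differed as well. Erythroid markers fell in 8 of 9 cases, with a summed level of 39515 to 47459 normalized counts against 101780 to 133592 in controls. Granulocyte and monocyte markers rose in 13 of 18 (61468 to 120394 against 31233 to 35050) and hepatocyte markers in 15 of 16 (24043 to 44562 against 6233 to 19792). B-lymphoid markers fell in 8 of 8. Progenitor markers rose in 3 of 6 (6065 to 6856 against 4615 to 5329). No listed marker was at 0 in all libraries of either group. The part of these cells in the members' rise was not tested, and in pooled cells fewer cells of a type and less RNA per cell cannot be told apart.

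With VavCre Rps19flox/+, the same mRNAs were lower in Kit+ cytoplasm. Of 27 members 22 fell, where 26.1% of all genes fell, and 1 rose, where 27.6% rose. The median was -0.32 over the members and 0.01 over all genes, and 21 members had every VavCre library below every control, as in 29% of all genes. Large-subunit mRNAs fell in 25 of 46 cases and rose in 4 (median -0.25). Without Rps19flox/+ replicate 1 only 12 members passed in place of 23, the lowest count of any left-out library.

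Rps12 fell most. It stood at 42585, 33888 and 39335 normalized counts in the Rps19flox/+ pools and at 24120, 24265 and 22427 with VavCre, so that the groups lay well apart (log2 change -0.70 ± 0.11, SE, n = 3 and 3, adjusted p = 0.000207). Rps3a1, a platform protein near the mRNA exit, went from 32798, 27834 and 28847 to 15610, 20180 and 19499 (-0.70 ± 0.12, adjusted p = 0.00039). Rps20, a head protein, went from 19282, 16249 and 18392 to 12375, 11608 and 10687 (-0.64 ± 0.11, adjusted p = 0.000363). In none of the 3 did the groups overlap.

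Rps2, which lines the channel where mRNA enters, was the member that rose. Its counts were 53706, 51772 and 52704 in controls and 74103, 64058 and 60984 with VavCre (0.33 ± 0.09, adjusted p = 0.00819). It was also higher with VavCre Rpl5flox/+ (0.34 ± 0.09, adjusted p = 0.00995), from 52840, 55351 and 53546 to 65402, 72688 and 66970. The difference between these changes was 0.01 with a 95% interval of -0.26 to 0.29. Rps3 (0.03 ± 0.08) and Rpsa (0.10 ± 0.10), the laminin receptor precursor of the platform, did not pass, nor did Rps14 (-0.27 ± 0.11, adjusted p = 0.0606) and Rps27 (-0.19).

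All 11 head members but Rps3 fell (median -0.37), as did 12 of 16 in the body and platform (median -0.31), where Rps2 rose. Of the 9 genes shared with Diamond-Blackfan anemia 8 fell. Assembly factors moved the other way on balance, with 11 of 24 that rose and 3 that fell (median 0.14). Granulocyte and monocyte markers fell in 18 of 18 cases (summed level 4205 to 8798 against 21227 to 29958 in controls), B-lymphoid in 8 of 8 and progenitor in 3 of 6, while 2 of 9 erythroid markers fell (56492 to 93309 against 94364 to 159782). Their part in the members' change was not tested.

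The lines differed for nearly every member. The Rpl5 change minus the Rps19 change, each with its own controls, was above 0 at the threshold for 24 of 27 members in Kit+ cytoplasm, where it was for 23.2% of all genes. Its median was 0.65, against 0.04 over all genes. Rps12 (1.24 ± 0.16, SE, adjusted p = 5.98e-05), Rps24 of the body's foot (1.12 ± 0.17, adjusted p = 0.000142) and Rps20 (1.08 ± 0.16, adjusted p = 0.000123) differed most. Rps2, Rps3 (0.11, 95% interval -0.15 to 0.37) and Rpsa (0.15, -0.15 to 0.46) did not pass.

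**Figure D1:**
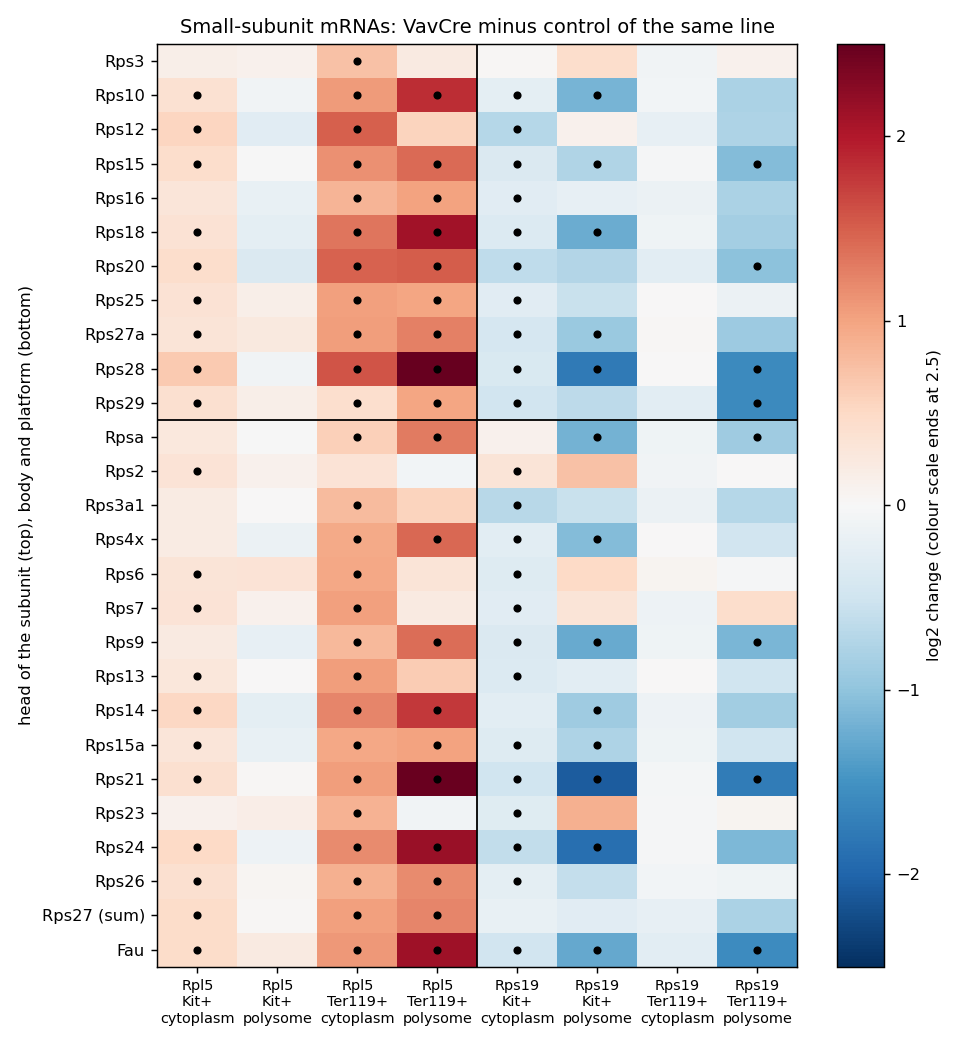
Log2 change of each of 27 small-subunit mRNAs (rows, head proteins above the line, body and platform below) in the 8 comparisons of VavCre with the floxed control of the same line, as labelled (columns); black dots mark limma adjusted p under 0.05. Cytoplasm columns show 20 and 26 rises with Rpl5 and 22 falls and 1 rise with Rps19 in Kit+ cells; Rps19 Ter119+ cytoplasm and Rpl5 Kit+ polysome have no dots.

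In Ter119+ cytoplasm the libraries labelled VavCre Rpl5flox/+ had higher levels of every member. Of 27, 26 rose, where 35.3% of all genes rose, and in all 27 no VavCre library overlapped a control, as in 39.3% of all genes. The median log2 change was 1.02, against 0.16 over all genes. The size of the rise depends on the scaling. As a share of all reads the members stood at 3.52 to 4.21% (mean 3.91%) against 0.566 to 1.216% (mean 0.865%). As an alternative, libraries were scaled to their total without Lars2, a mitochondrial leucyl-tRNA synthetase gene that took 0.16 to 0.534% of the reads of these VavCre libraries and 0.305 to 0.5% in controls. That moved the median of all genes to 1.36 and that of the members to 2.38. With so small a share, leaving Lars2 out hardly changed these totals, which also hold the erythroid mRNAs summed below. Large-subunit mRNAs rose in 43 of 46 cases (median 0.93). Rps19, left out of the list, rose by 1.08 here and by 0.39 in Kit+ cytoplasm of the same line.

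Rps28 rose from 4179, 4067 and 5430 to 13771, 13795 and 12787 normalized counts, 2.97-fold (log2 change 1.57 ± 0.14, SE, n = 3 and 3, adjusted p = 5.59e-07). Rps12 went from 16523, 15798 and 21503 to 46640, 52702 and 51057 (1.49 ± 0.16, adjusted p = 3.53e-06), and Rps20 from 8107, 7523 and 9310 to 22598, 24341 and 22387 (1.48 ± 0.14, adjusted p = 1.01e-06). The lowest VavCre pool of each was more than 2-fold above the highest control. Rps29, a zinc-binding protein of the head, had the smallest rise that passed, 0.43 ± 0.14 (adjusted p = 0.0141), and Rps2 was at 0.35 ± 0.19 (adjusted p = 0.12), though with either other scaling all 27 passed.

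These libraries were also less erythroid by their markers. All 9 erythroid markers fell (summed level 2168931 to 3730522 normalized counts against 7414703 to 18174336), all 6 progenitor markers rose (3088 to 3200 against 292.4 to 681.8), and 16 of 18 granulocyte and monocyte markers rose (58438 to 119119 against 11233 to 21331). In controls the members were lower in Ter119+ than in Kit+ cytoplasm, as given further on. The part of the cell mixture in the members' rise was not tested.

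With VavCre Rps19flox/+, no member passed in Ter119+ cytoplasm, where 25.8% of all genes did. None had an unadjusted p under 0.05, as 38.8% of all genes did, and limma voom on recovered reads called none, and 27.7% of all genes. The changes ran from -0.27 for Rps29 (95% interval -0.57 to 0.02) to 0.07 for Rps6, the S6 kinase substrate, with a median of -0.09. Rps28 stood at 5506, 5834 and 6324 normalized counts in controls and at 5337, 6800 and 5795 with VavCre, so that the groups overlapped. As a share of all reads the members were higher with VavCre, without overlap (1.37 to 1.75% against 1.05 to 1.27%). With scaling by the total without Lars2 their median was 0.39, against 0.40 over all genes, and none passed. The summed level of erythroid markers was 5478103 to 5905724 normalized counts, against 9059096 to 9678256 in controls. Granulocyte and monocyte markers fell in 13 of 18 cases and macrophage markers in 9 of 14, and 1 of 9 erythroid markers fell. Progenitor markers summed to more than in controls, without overlap (803.7 to 1062 normalized counts against 396.3 to 474).

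The lines differed in Ter119+ cytoplasm for 26 of 27 members, all above 0 for Rpl5 minus Rps19, where 20.6% of all genes were. Rps20 (1.74 ± 0.20, SE, adjusted p = 4.22e-05), Rps12 (1.70 ± 0.23, adjusted p = 0.000121) and Rps28 (1.55 ± 0.20, adjusted p = 7.97e-05) led, and Rps2 did not pass (0.44, 95% interval -0.14 to 1.01). The median was 1.04, against 0.10 over all genes.

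**Figure D2:**
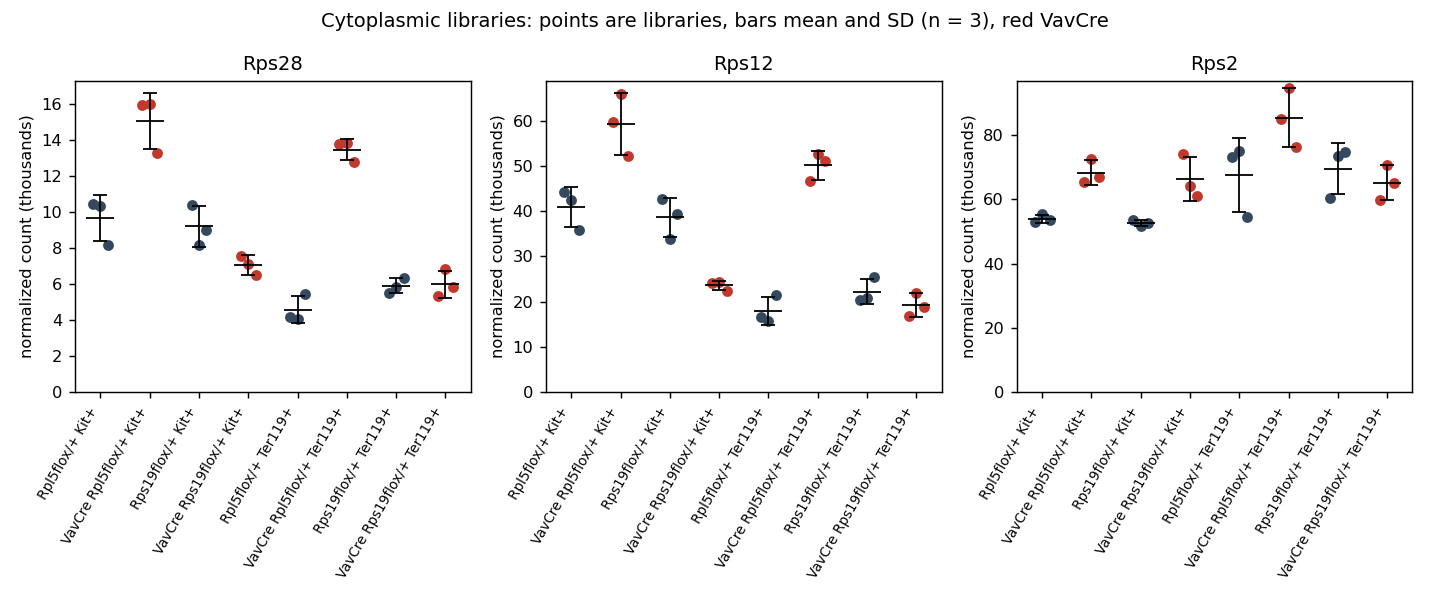
Normalized counts (axis in units of 1000) of Rps28, Rps12 and Rps2 in the 8 cytoplasm groups, named as labelled; each point is a library, the bar is the mean with the SD (n = 3), and VavCre groups are red. Rps28 and Rps12 lie above their controls with Rpl5 in both cell types and below them with Rps19 in Kit+ cells, while Rps2 is higher with either gene in Kit+ cells.

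The balance between the subunits needs no scaling, since it is a ratio of reads within a library. Reads on the 27 members over reads on the 46 large-subunit mRNAs were 0.712 ± 0.006 in Rpl5flox/+ Kit+ cytoplasm and 0.734 ± 0.009 with VavCre (SD, n = 3 each). Neither Rps19 nor Rpl5 is counted in this ratio. In the Rps19 line the ratio was 0.700 ± 0.011 in controls and 0.663 ± 0.006 with VavCre. In Ter119+ cytoplasm it was 0.704 ± 0.004 and 0.672 ± 0.004 in the Rps19 line, and 0.697 ± 0.017 and 0.692 ± 0.007 in the Rpl5 line.

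Both cell types of VavCre Rps19flox/+ thus had ratios that did not overlap their controls, at 0.656 to 0.668 against 0.687 to 0.708 in Kit+ and 0.668 to 0.675 against 0.7005 to 0.708 in Ter119+ cells. In the Rpl5 line the Kit+ groups did not overlap (0.723 to 0.739 against 0.705 to 0.717) and the Ter119+ groups did. A two-sided exact permutation test of 3 against 3 libraries cannot go below 0.1, so the ratios are given as a description. On polysomes, in Kit+ cells of the Rps19 line the ratio was higher with VavCre, without overlap (0.650 to 0.693 against 0.610 to 0.634). In the libraries labelled VavCre Rpl5flox/+ Ter119+ it was lower than in the 2 controls, without overlap (0.594 to 0.632 against 0.653 to 0.654). In Ter119+ cells of the Rps19 line the groups overlapped (0.632 to 0.662 against 0.602 to 0.671), and the 1 VavCre Rpl5flox/+ Kit+ library (0.657) lay within its controls (0.599 to 0.702).

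**Figure D3:**
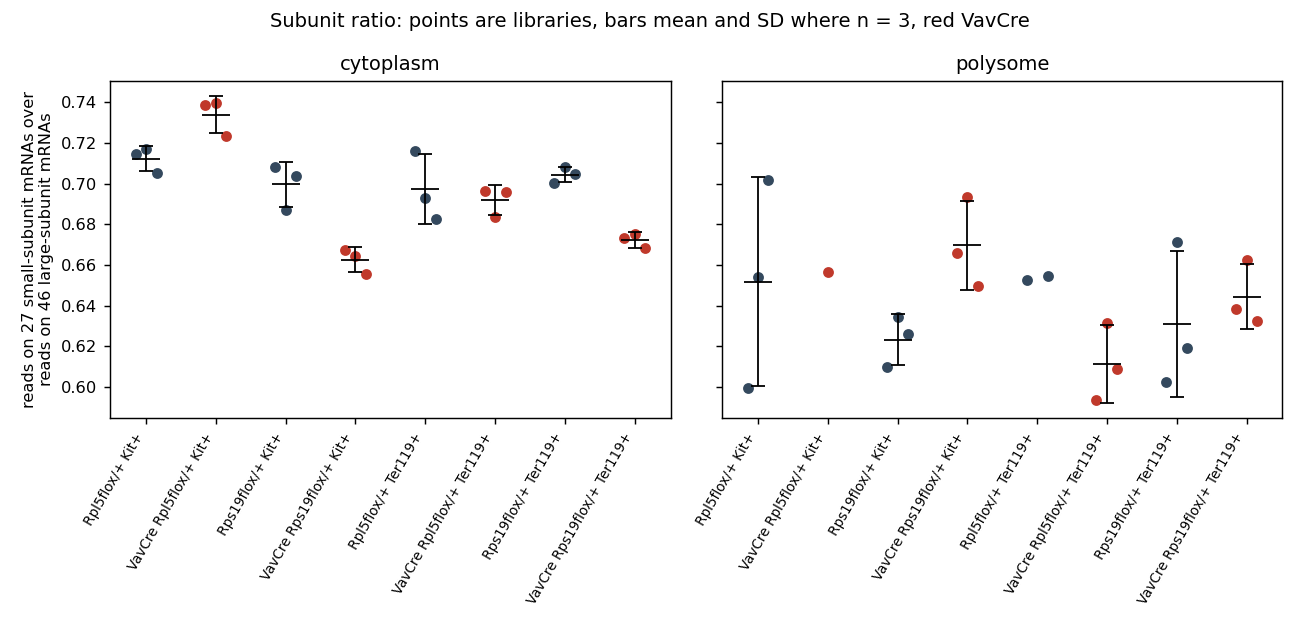
Reads on 27 small-subunit mRNAs divided by reads on 46 large-subunit mRNAs, by library (points) and group as labelled (bars: mean and SD where n = 3; VavCre red), in cytoplasm (left) and polysomes (right). The vertical axis does not start at 0. VavCre Rps19flox/+ cytoplasm lies lowest in both cell types, at means of 0.663 and 0.672.

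In control Kit+ pools most members were enriched on polysomes. The polysome library minus the cytoplasm library of the same pool (6 pools, the pool as a block) was above 0 at the threshold for 21 of 27 members, where 7.69% of all genes were, and below 0 for 1, where 37.5% were. The median was 1.34, against -1.32 over all genes tested. Among the 3205 genes with a mean of at least 500 normalized counts the median was -0.38, 23% were higher and 33.7% lower. With scaling by the total without Lars2 the split was 21 higher and 5 lower. The large subunit had 33 of 46 higher and 6 lower (median 1.00), and other TOP mRNAs 4 of 21 higher and 7 lower (median -0.25).

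The members differed widely among themselves. Rps21, a small protein that sits beside Rpsa, led with a log2 difference of 3.28 ± 0.10 (SE, n = 6 pools, adjusted p = 7.44e-08). Its normalized counts were 8791 to 11582 in the 6 control cytoplasm libraries and 81118 to 120252 in the polysome libraries of the same pools. Rps28 followed at 2.88 ± 0.10 (adjusted p = 1.35e-07) and Fau, made as a fusion with a ubiquitin-like protein, at 2.25 ± 0.12 (adjusted p = 2.01e-06). Rps2 was lower on polysomes, by -0.36 ± 0.08 (adjusted p = 0.00944), with overlapping libraries. Its call was lost without the libraries under 2 M reads and when libraries were rescaled to each other. Rps23 (-0.23), Rps7 (-0.19), Rps6 (-0.13), Rps3 (-0.02) and Rps12 (0.28) did not pass.

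Control Ter119+ pools showed a like order over a narrower range when both control lines were joined. Of 27 members 20 were higher on polysomes, where 4.81% of all genes were, and Rps2 was lower, where 21.9% of all genes were. The median was 0.96, against -0.66 over all genes. Of genes with a mean of at least 500 normalized counts 11.4% were higher and 39.4% lower (median -0.50). Rps21 (2.16 ± 0.21, SE, n = 5 pools, adjusted p = 0.000319), Rps28 (1.85 ± 0.20, adjusted p = 0.000391) and Fau (1.78 ± 0.18, adjusted p = 0.000319) again led. The lines differed, with Rps21 at 1.58 and 1.49 in the Rpl5flox/+ pools and at 2.80, 2.24 and 2.71 in the Rps19flox/+ pools. Rps2 was at -0.58 ± 0.18 (adjusted p = 0.0354), a call that was lost when libraries were rescaled to each other.

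Across the 27 members the Kit+ and Ter119+ differences had a Pearson r of 0.83 and a Spearman rho of 0.71, given as a description, since genes are not independent replicates. Rpsa stood out between the cell types, at 1.70 ± 0.11 in Kit+ and 0.23 ± 0.18 in Ter119+ cells, and Rps4x was at 1.35 ± 0.08 and 0.35 ± 0.15. That difference between the cell types was not tested. The 8 members with a C-led run at the RefSeq start had a median difference of 1.94 in Kit+ cells and the 15 without one of 0.93. For a run anywhere in the window the medians were close, at 1.32 for the 15 with one and 1.23 for the 8 without. Both splits describe these 23 genes and are not tests.

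**Figure D4:**
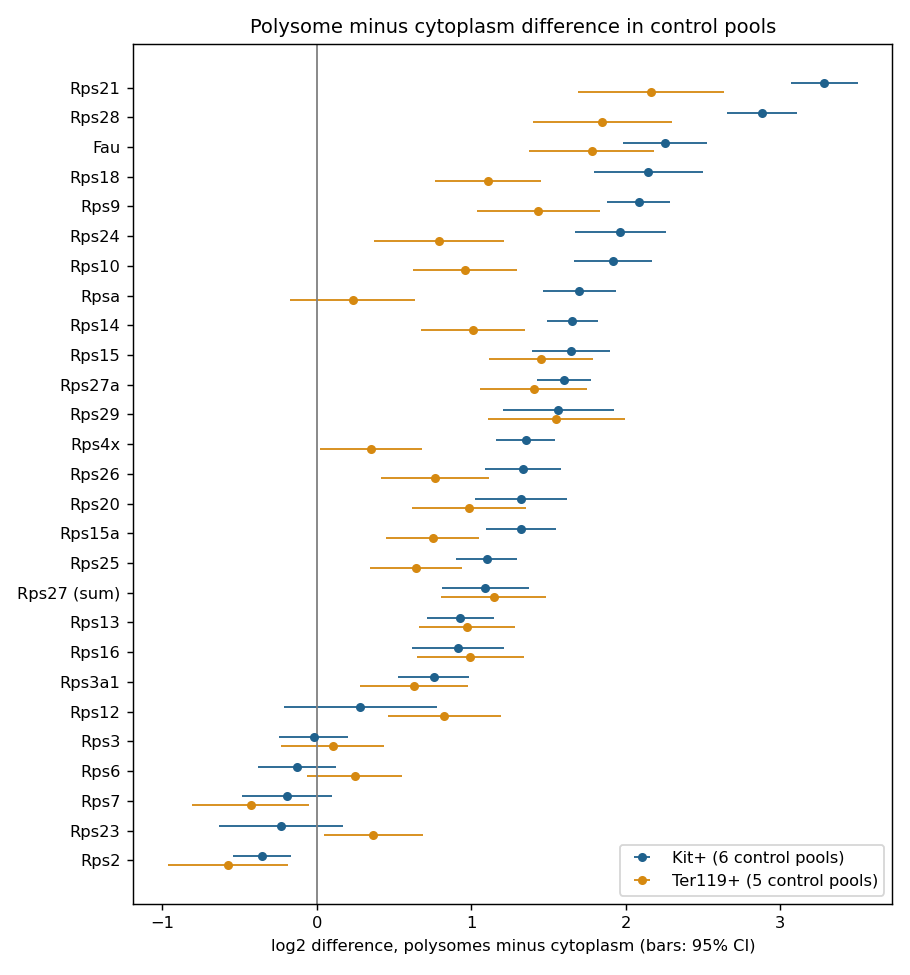
Log2 difference between the polysome and the cytoplasm library of the same control pool for each of 27 members, ordered by the Kit+ value; points are estimates and bars 95% confidence intervals (6 Kit+ and 5 Ter119+ pools). Rps21 (3.28 and 2.16) and Rps28 (2.88 and 1.85) lead in both cell types, and Rps2 (-0.36 and -0.58) is lowest.

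Between the control cell types the members were lower in Ter119+ cells. In cytoplasm 24 of 27 fell relative to Kit+ cells, where 42.8% of all genes fell, and Rps2 (0.35 ± 0.10, SE) and Rpsa (0.22 ± 0.10) were higher, where 35.7% of all genes were. The median was -0.57, against -0.13 over all genes. Rps12 (-0.998 ± 0.12, adjusted p = 1.07e-06), Rps20 (-0.95 ± 0.12, adjusted p = 1.55e-06) and Rps18 (-0.94 ± 0.13, adjusted p = 4.92e-06), all of the head, fell most, and Rps29 was at 0.06 ± 0.09. Scaled to the total without Lars2, all 27 were lower (median -2.79), Rpsa (-2.01) and Rps2 (-1.88) among them. The median of all genes moved to -2.13. Those totals hold the erythroid markers, which summed to 7414703 to 18174336 normalized counts in control Ter119+ cytoplasm and to 94364 to 159782 in control Kit+ cytoplasm. On polysomes 19 of 27 fell and none rose, where 7.43% of all genes fell, led by Rps18 (-2.002 ± 0.26, adjusted p = 1.04e-05), Rps28 (-1.90 ± 0.28, adjusted p = 5.49e-05) and Rps21 (-1.81 ± 0.27, adjusted p = 5.03e-05). Of genes with a mean of at least 500 normalized counts on these polysomes 19.3% fell and 33.4% rose.

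On Kit+ polysomes many members were lower with VavCre Rps19flox/+. Of 27, 13 fell and none rose, where 3.66% of all genes fell, and 16 had every VavCre library below every control, as in 9.37% of all genes. The median was -0.73, against 1.11 over all genes. Among the 2975 genes with a mean of at least 500 normalized counts, the range in which the members lie, the median was 0.19 and 12.4% fell. Scaling by the total without Lars2 gave 11 lower and 4 higher. Without the libraries under 2 M reads 6 fell, and without VavCre replicate 2, VavCre replicate 3 or Rps19flox/+ replicate 1 the count was 8, 7 and 7.

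Rps21 went from 112054, 120252 and 83321 normalized counts in the Rps19flox/+ pools to 27412, 30944 and 17365 with VavCre (log2 change -2.08 ± 0.24, SE, n = 3 and 3, adjusted p = 0.000868). Rps24 went from 80006, 88261 and 78954 to 22507, 25520 and 19281 (-1.88 ± 0.20, adjusted p = 0.000606), and Rps28 from 83578, 76196 and 52738 to 22525, 24727 and 15399 (-1.76 ± 0.23, adjusted p = 0.00137). In all 3 the lowest control was more than 2-fold above the highest VavCre pool. The other members that fell were Fau, Rps9, Rps18, Rpsa, Rps10, Rps4x, Rps27a, Rps14, Rps15a and Rps15, by 1.27 to 0.76. Rps23 (0.89), Rps2 (0.74 ± 0.21, adjusted p = 0.0566), Rps6 (0.49), Rps3 (0.44), Rps7 (0.31) and Rps12 (0.11 ± 0.47) did not pass.

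Depth and 1 gene moved with the genotype here. The Rps19flox/+ control polysome libraries held 1.011, 7.17 and 1.833 M reads with 43.0, 10.33 and 54.87% of them on Lars2, and the VavCre libraries held 10.84, 24.39 and 37.57 M with 4.506, 0.5114 and 0.3825%. Granulocyte and monocyte markers summed to 3558 to 9020 normalized counts with VavCre and to 42865 to 59023 in controls, and 5 of 18 fell. Erythroid markers summed to 85769 to 130151 with VavCre and to 171169 to 370722 in controls. B-lymphoid sums were 29.41 to 62.04 against 727.1 to 2742. The progenitor, hepatocyte and macrophage sums overlapped. The part of these cells in the members' fall was not tested.

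The drop beyond that of the cytoplasm was tested with the pool as a block. Polysome minus cytoplasm was lower with VavCre Rps19flox/+ than in its controls for 8 of 27 members and higher for none, where 2.7% of all genes were lower. Those 8 were Rps21 (-1.59 ± 0.22, SE, adjusted p = 0.00643), Rps28 (-1.39 ± 0.21, adjusted p = 0.0107), Rpsa (-1.29 ± 0.15, adjusted p = 0.00278), Rps24, Rps10, Rps9, Rps4x and Rps14. Their median log2 difference is set by the choice of those that passed, while that of all 27 was -0.35, against 1.19 over all genes and 0.36 over those with a mean of at least 500 normalized counts, of which 8.19% were lower. Scaling by the total without Lars2 gave 7 lower and 5 higher, and 2 to 11 members passed when a pool was left out. The count was 5 without Rps19flox/+ replicate 1, and 2, 3 and 2 without VavCre replicates 1, 2 and 3.

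The spread of the members on polysomes narrowed in these pools. The SD over the 27 members of the polysome minus cytoplasm difference was 0.94 to 1.00 in the 3 Rps19flox/+ Kit+ pools and 0.38 to 0.48 with VavCre. In Ter119+ cells it was 0.64 to 0.88 in Rps19flox/+ and 0.30 to 0.35 with VavCre. In the libraries labelled VavCre Rpl5flox/+ Ter119+ it was 0.87 to 1.21, against 0.50 to 0.55 in Rpl5flox/+. The gap between Rps21 and Rps2, a pair picked after the values were seen, was 3.76 on average in Rps19flox/+ Kit+ pools and 1.76 with VavCre.

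Depth and the share of Lars2 moved with this spread, and their part was not tested. Polysome libraries held 20.48 to 33.56 M reads in VavCre Rps19flox/+ Ter119+ cells and 4.587 to 16.07 M in their controls. Lars2 took 0.306 to 1.574% of those VavCre reads and 3.222 to 17.29% in the controls. In the Ter119+ polysome libraries of the Rpl5 line the depth was 1.021 to 19.07 M with VavCre and 15.37 and 39.76 M in controls, with 1.365 to 35.05% and 0.1655 to 4.467% on Lars2.

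The members that fell most were those with the largest polysome share in the other line's controls. Across the 27 members, the polysome minus cytoplasm difference in the 3 Rpl5flox/+ Kit+ pools, which share no library with the Rps19 line, had a Pearson r of -0.96 and a Spearman rho of -0.96 with the change on VavCre Rps19flox/+ Kit+ polysomes. The relation was not particular to these genes. It was -0.94 over the 46 large-subunit mRNAs and -0.70 over the 3754 genes with a mean of at least 500 normalized counts. In Ter119+ cells r was -0.70 over the members, -0.79 over the large subunit and -0.39 over those genes. For the libraries labelled VavCre Rpl5flox/+ Ter119+ the sign was the opposite. Their change on polysomes, set against the polysome minus cytoplasm difference in Rps19flox/+ Ter119+ pools, had an r of 0.77 over the members, 0.90 over the large subunit and 0.55 over those genes. All these points share the same libraries and their depth, and r is a description.

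**Figure D5:**
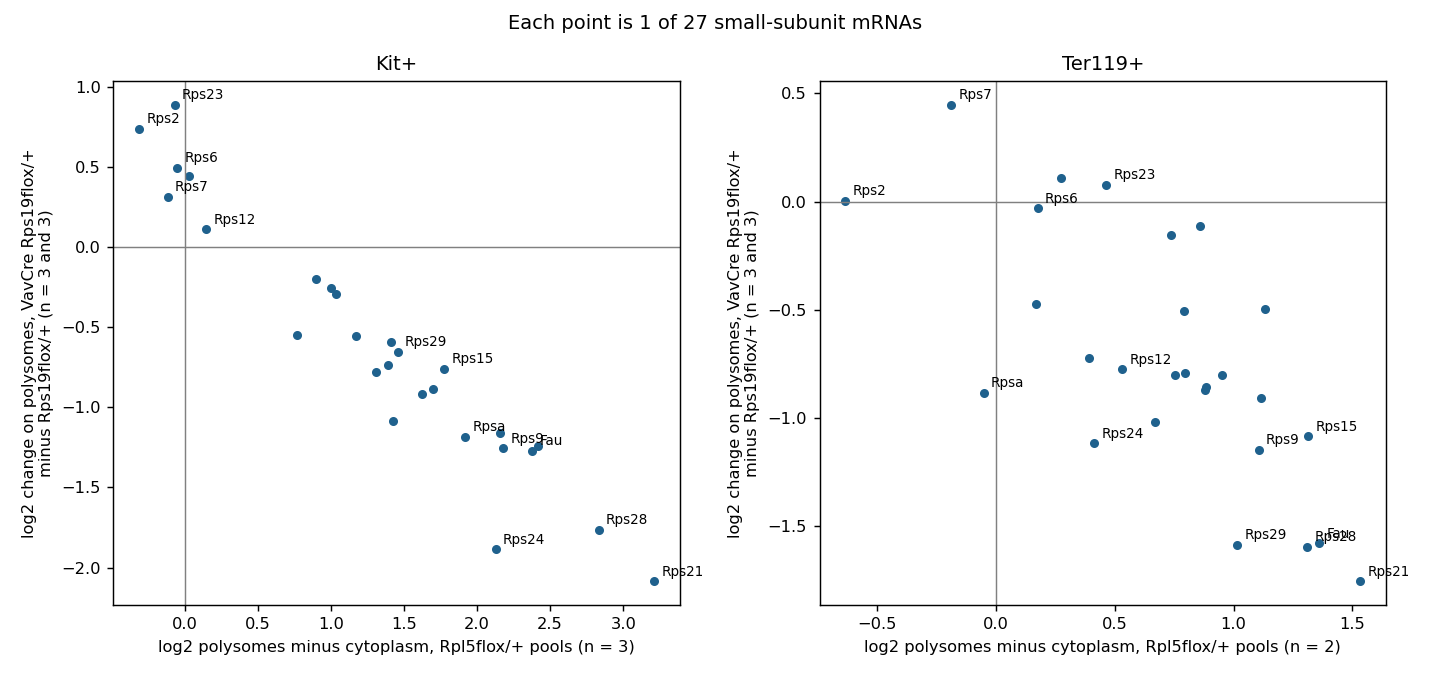
Each point is 1 of 27 members; the horizontal axis is its log2 polysome minus cytoplasm difference in Rpl5flox/+ control pools (3 Kit+, 2 Ter119+) and the vertical axis its log2 change on polysomes with VavCre Rps19flox/+ (3 against 3 libraries). Rps21 and Rps28 lie at the lower right and Rps2 at the upper left in both panels (r = -0.96 in Kit+ and -0.70 in Ter119+ cells).

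On Ter119+ polysomes VavCre Rps19flox/+ had 8 of 27 members lower and none higher, where 0.575% of all genes fell, and 20 with no overlap below the controls, as in 9.08% of all genes. The median was -0.80, against 0.51 over all genes and 0.25 over those with a mean of at least 500 normalized counts, of which 1.72% fell. Rps21 went from 44830, 32009 and 49998 to 13231, 11312 and 12519 normalized counts (-1.75 ± 0.23, SE, n = 3 and 3, adjusted p = 0.00728), Rps28 from 32177, 19776 and 31542 to 9740, 8626 and 8672 (-1.59 ± 0.24, adjusted p = 0.0186), and Rps29 from 63777, 56851 and 51365 to 22152, 19083 and 16286 (-1.59 ± 0.26, adjusted p = 0.0261). No VavCre library of these reached a control of its own line. Fau, Rps9, Rps15, Rps20 and Rpsa also fell. The controls of the lines differed as well. Members took 0.484 and 0.723% of the reads without Lars2 in Rpl5flox/+, 1.78 to 2.47% in Rps19flox/+ and 1.48 to 1.82% with VavCre Rps19flox/+. Rps28 in the Rpl5flox/+ controls, given further on, overlapped its VavCre Rps19flox/+ values.

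The number of calls was not stable. It was 5 when libraries were rescaled to each other, 0 with the total without Lars2, 16 without the library under 2 M reads, which belongs to the Rpl5 line, and 17 with voom, which called 5.7% of all genes. It was 0 without VavCre replicate 2 or 3 or Rps19flox/+ replicate 1 or 3, and 1 without VavCre replicate 1. Granulocyte and monocyte markers fell in 3 of 18 cases, with sums of 2674 to 4884 against 11422 to 42502. Erythroid markers summed to 5498051 to 9491342 with VavCre, against 11211380 to 17444560 in controls. B-lymphoid sums, low in both groups, were 4.397 to 16.07 against 111.1 to 206.5. The progenitor, hepatocyte and macrophage sums overlapped. The part of these cells was not tested. Relative to cytoplasm no member passed, where 0.0184% of all genes did. In 20 members every VavCre pool was below every control pool, as in 5.47% of all genes. An unadjusted p under 0.05 was found for 17 members, 16 of them lower, and for 10.2% of all genes, 2.18% lower. Voom called 8 members and 0.633% of all genes. Rps21 was nearest, at -1.71 ± 0.26 (adjusted p = 0.0898). The count was 3 without Rps19flox/+ replicate 2.

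On Ter119+ polysomes the libraries labelled VavCre Rpl5flox/+ had 19 of 27 members higher and none lower, where 2.96% of all genes rose, and 21 with no overlap above the controls, as in 11.2% of all genes. The median was 1.21, against -1.003 over all genes and -1.17 over those with a mean of at least 500 normalized counts, of which 8.12% rose. Rps28 went from 9563 and 10977 normalized counts in the 2 control libraries to 96729, 64787 and 67029 (2.87 ± 0.27, SE, adjusted p = 6.13e-05). Rps21 went from 15866 and 17608 to 119515, 78918 and 84905 (2.47 ± 0.25, adjusted p = 0.00011), and Rps24 from 16729 and 21600 to 97979, 60732 and 103390 (2.16 ± 0.32, adjusted p = 0.0009). These levels were more than 2-fold above the 2 controls of this line in every library. Members took 4.08 to 6.49% of the reads without Lars2 with VavCre and 0.484 and 0.723% in these 2 controls. In the Rps19flox/+ controls they took 1.78 to 2.47%. The size of the rise thus rests on 2 controls that were low beside those of the other line. Rps2 (-0.07 ± 0.23), Rps23 (-0.10), Rps3, Rps7 and Rps6 were among the 8 that did not pass.

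Without Rpl5flox/+ replicate 1, which leaves 1 control library, 12 members passed. Erythroid markers fell in 9 of 9 cases (summed level 4521707 to 9071087 against 21340710 to 46282110) and granulocyte and monocyte markers rose in 7 of 18, and their part was not tested. Relative to cytoplasm no member passed with n = 3 and 2 pools, where 0.00918% of all genes did. Of the members 11 had an unadjusted p under 0.05, 4 of them lower, as did 14.5% of all genes, 12.5% lower. Voom called none, and 0.0184% of all genes. Rps21 (1.39, 95% interval 0.75 to 2.03) and Rps12 (-1.07, -1.90 to -0.25) lay at the ends. Without VavCre replicate 2 the count was 3.

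On Kit+ polysomes a single VavCre Rpl5flox/+ library stood against 3 controls. No member passed, where 1.83% of all genes did, none had an unadjusted p under 0.05, as 9.55% of all genes did, and voom called none, and 0.379% of all genes. The changes ran from -0.37 for Rps20 to 0.34 for Rps6, with a median of 0.01. Rps21 was at 100796 normalized counts, against 101097, 116056 and 81118, and Rps28 at 64248, against 61552, 78123 and 66319. The test lends the lone library the spread seen in the remaining groups, and the 95% interval of Rps21 ran from -0.73 to 0.80.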

How the data were processed

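Poly(A) RNA was sequenced as described above. Per the file headers and the values, the authors deposited log2 values of size-factor-normalized counts after variance stabilisation. The submitters' processing notes name the build mm10, while the sources used here give no aligner or counter. The transformation was inverted to normalized counts and reads, which came out whole for 100% of values (tolerance 1e-06). Rps27 and Rps27rt were summed on that scale. Two-sided tests were run on the deposited log2 values with limma 3.58.1 (R 4.3.3, trended eBayes). Genes averaging 10 or more normalized counts were kept, and p-values were adjusted over all of them by Benjamini-Hochberg (threshold 0.05). The planned form, log2 of the normalized count plus 1, was kept as an alternative. VavCre groups were set against controls of their own line, the 4 genotypes of a cell type and fraction sharing 1 spread. Fraction comparisons had the pool (the submitters' batch label) as a block.

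Members and lists were chosen with earlier results of these data known. Each comparison leads with the 3 members of largest change per direction that passed without overlap, and others are named where a result turns on them. Results of some other small-subunit genes are not reported here. The scripts were tested on simulated data. Libraries of the same replicate number deviated together (every correlation above 0.1) in the genotype comparisons of the Rpl5 line in cytoplasm, with values of 0.240, 0.253 and 0.306 for Kit+ cells, and for Ter119+ cells 0.129, 0.264 and 0.152. Between Kit+ and Ter119+ control cytoplasm, whose pools carry different batch labels, every correlation was above 0.1 in the Rps19 line (0.275, 0.222 and 0.139) but not in the Rpl5 line (0.111, 0.106 and -0.064). Alternatives were no filter on low values, 2 other scalings, log2 plus 1, a replicate block, other sets of libraries and limma voom on recovered reads. Promoter sequences are from RefSeq on GRCm38.p6. Versions of Python and matplotlib were 3.11.15 and 3.10.9.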

Additional observations from a re-analysis of the deposited data

Results flagged for a closer look

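The difference between the lines was itself tested and passed for 24 of 27 members in Kit+ cytoplasm and for 26 in Ter119+ cytoplasm, always with the Rpl5 change above the Rps19 change. The difference between genotypes in polysome minus cytoplasm passed for 8 members in Kit+ cells of the Rps19 line. Among 108 checks of control libraries for a value far from the rest, 2 were met. The checks share libraries and each set joins both control lines, so this number cannot be set against chance. Rps9 on Kit+ polysomes was lowest in Rps19flox/+ replicate 3, at 91315 normalized counts, and Rps23 on Ter119+ polysomes was highest in Rps19flox/+ replicate 2, at 15357.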

How the results depend on the processing

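Over the alternatives tried, the member counts in cytoplasm and in controls kept within 1.5 times of the reported ones, except for Rps19 in Kit+ cytoplasm when libraries were left out in turn (12 to 24). On polysomes the counts moved more. For Rps19 in Kit+ cells they were 7 to 12 with a library left out and 6 without libraries under 2 M reads. For Rps19 in Ter119+ cells they were 0 to 8 with a library left out, 5 rescaled, 0 with the total without Lars2, 16 without libraries under 2 M reads and 17 with voom. For Rpl5 in Ter119+ cells they were 12 to 21 with a library left out. For polysome minus cytoplasm the Rps19 counts were 2 to 11 in Kit+ cells with a pool left out. In Ter119+ cells they were 0 to 3 with a pool left out, 1 with the total without Lars2, 2 with no replicate block, 7 without libraries under 2 M reads and 8 with voom, and the Rpl5 counts were 0 to 3. The cause of these shifts was not tested. The replicate block gave 24 calls in place of 20 for Rpl5 in Kit+ cytoplasm and moved no count by over 1.5 times. Between control cell types Rpsa (-2.01) and Rps2 (-1.88) reversed with the total without Lars2. Of the values of members that passed, 3556 kept direction and call and 232 kept direction only. Leaving out the only VavCre Rpl5flox/+ Kit+ polysome library was not run.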
